A study of Mus musculus with 9 samples.

Results

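The 6 beta crystallin genes of the mouse lens, *Cryba1*, *Cryba2*, *Cryba4*, *Crybb1*, *Crybb2* and *Crybb3*, were taken by symbol from the deposited gene tables of newborn lenses, which list 47729 genes. All 6 were present in every table and all 6 passed the filter on low counts. Membership was decided by symbol, with no threshold on a measured value. Their transcripts made up between 14.7% and 17.0% of the transcripts in a lens RNA sample.

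The samples were whole lenses of newborn FVB/N mice. The FVB/N group carried no transgene. The *P0-3.9GFPCre* group was hemizygous for a transgene encoding a fusion of GFP and CRE, and the *Le-Cre* group was hemizygous for a transgene encoding nuclear CRE followed by an internal ribosome entry site and GFP. Both transgenes are driven by *Pax6* promoter and ectoderm enhancer sequence that is active in the surface ectoderm from which the lens forms. All groups share the FVB/N background. Each transgenic group is a single line, so the transgene and its insertion site cannot be told apart. Each group had 3 pools, and each pool held 6 lenses from 3 mice, so the error given for a line is the spread between pools and not between single animals.

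Beta crystallins are structural proteins that fill the cytoplasm of lens fibre cells. They belong to a superfamily with the gamma crystallins, built from Greek key folds, and they assemble with each other into dimers and larger oligomers. The dense and even packing of crystallins gives the lens its refractive index and transparency, and mutations in beta crystallin genes cause inherited cataract in humans and mice. Genes named *Cryba* encode the acidic members and genes named *Crybb* the basic members.

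The genes lie on 3 chromosomes (GRCm38). *Cryba1* is on chromosome 11, from 77718615 to 77725283 on the minus strand, and *Cryba2* is on chromosome 1, from 74889934 to 74893143 on the minus strand. The other members are on chromosome 5 and form pairs of neighbours. *Cryba4* (112246493 to 112252518, minus strand) and *Crybb1* (112255815 to 112269585, plus strand) point away from each other with 3296 bases between them. *Crybb2* (113058258 to 113070117) and *Crybb3* (113075839 to 113081584) both lie on the minus strand with 5721 bases between them. A stretch of 788672 bases separates *Crybb1* from *Crybb2*. All 6 are annotated as protein coding genes.

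The promoters of 3 members are shown because these genes span the range of levels described next: *Cryba1* had the most transcripts, and the neighbours *Crybb3* and *Crybb2* differed most in level among genes that adjoin. Each sequence covers the bases from 150 to 11 before the RefSeq start of the gene, on the strand of the gene (RefSeq, GRCm38.p6), at chr11:77725304-77725443 for *Cryba1*, chr5:113081595-113081734 for *Crybb3* and chr5:113070128-113070267 for *Crybb2*, all on the minus strand. Capitals mark the letters TATAA, the core of a TATA box, and TGCTGA, the half-site of the element bound by large Maf proteins, in either orientation (TTATA and TCAGCA when reversed).
Cryba1: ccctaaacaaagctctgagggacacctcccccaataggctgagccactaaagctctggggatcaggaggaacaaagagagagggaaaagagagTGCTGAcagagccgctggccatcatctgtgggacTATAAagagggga
Crybb3: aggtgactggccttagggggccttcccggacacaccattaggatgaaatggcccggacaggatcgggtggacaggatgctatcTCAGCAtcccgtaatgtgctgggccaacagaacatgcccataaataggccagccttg
Crybb2: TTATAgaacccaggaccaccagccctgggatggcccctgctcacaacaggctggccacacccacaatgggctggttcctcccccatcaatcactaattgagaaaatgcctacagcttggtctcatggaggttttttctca
In the *Cryba1* promoter TATAA lay on the gene's strand 23 to 19 bases before the start, and TGCTGA lay 57 to 52 bases before it. The *Crybb3* window held TGCTGA in reverse, 67 to 62 bases before the start. In the *Crybb2* window the one match was TATAA in reverse, 150 to 146 bases before the start.

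Over the full 250 bases before the start, TGCTGA was found in 5 of the 6 members, the exception being *Crybb2*, and in 16.1% of 32851 promoter entries. *Cryba4* held 3 copies. TATAA was found in 4 of 6 members (*Cryba1*, *Cryba4*, *Crybb1* and, in reverse, *Crybb2*) and in 22.8% of entries. On the gene's strand with its first base at most 40 and its last base at least 16 bases before the start, TATAA was present in 3 of 6 members (*Cryba1*, *Cryba4* and *Crybb1*) and in 3.52% of entries. The heat shock element letters TTCNNGAA were present in 1 member, *Cryba1*, 158 to 151 bases before the start, and in 7.17% of entries. These matches did not overlap each other in the members, and they describe letters and not binding.

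Levels between genes were compared as TPM, which divides the reads of a gene by its transcript length and scales every pool to the same total. *Cryba1*, which encodes a pair of acidic polypeptides from alternative start codons, was the most abundant member in every pool. Its TPM was 83145, 79723 and 85498 in the FVB/N pools, 75388, 98269 and 89936 in the *P0-3.9GFPCre* pools, and 92273, 87175 and 91432 in the *Le-Cre* pools. It ranked 2nd or 3rd among all genes of a pool, and 3rd among 16 crystallin genes on the mean of the 9 pools, behind *Cryaa* and *Cryga*. The lowest and the highest *Cryba1* values both came from *P0-3.9GFPCre* pools. The 3 *Le-Cre* values lay above all 3 FVB/N values on this scale, but overlapped them in CPM, the count-based scale defined below. The share of all genes whose lines separate in TPM was not counted, so such separations are description only.

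*Crybb3* and *Crybb1* came next. *Crybb3*, a basic member, had TPM of 24611, 26846 and 24416 in FVB/N, 24665, 25591 and 25652 in *P0-3.9GFPCre*, and 22836, 21484 and 23597 in *Le-Cre*. The 3 *Le-Cre* values were below every value of the other lines in TPM, and in CPM below those of FVB/N only. *Crybb1*, a basic member with long terminal extensions, had TPM of 22526, 20663 and 24740 in FVB/N, 22665, 18754 and 20366 in *P0-3.9GFPCre*, and 24274, 19361 and 21590 in *Le-Cre*. All 3 lines overlapped for *Crybb1*.

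The acidic members *Cryba4* and *Cryba2* lay close together. *Cryba4* had TPM of 11750, 11321 and 10607 in FVB/N, 11159, 12228 and 12738 in *P0-3.9GFPCre*, and 10727, 11576 and 12027 in *Le-Cre*, with all lines overlapping. *Cryba2* had TPM of 10735, 11004 and 10933 in FVB/N, 11272, 11625 and 11184 in *P0-3.9GFPCre*, and 10532, 10749 and 10975 in *Le-Cre*. The *P0-3.9GFPCre* values of *Cryba2* lay above those of the other lines on the TPM scale, by a small margin, and overlapped them in CPM.

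*Crybb2*, the basic member known for accumulating in the lens after birth, was the least abundant. Its TPM was 3889, 2801 and 2902 in FVB/N, 2216, 3467 and 4409 in *P0-3.9GFPCre*, and 3937, 3863 and 4070 in *Le-Cre*. The *Le-Cre* pools lay close together, whereas the *P0-3.9GFPCre* pools included both the lowest and the highest of the 9 values. *Crybb2* ranked between 20th and 30th among all genes of a pool and 15th of the 16 crystallins.

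**Figure D1:**
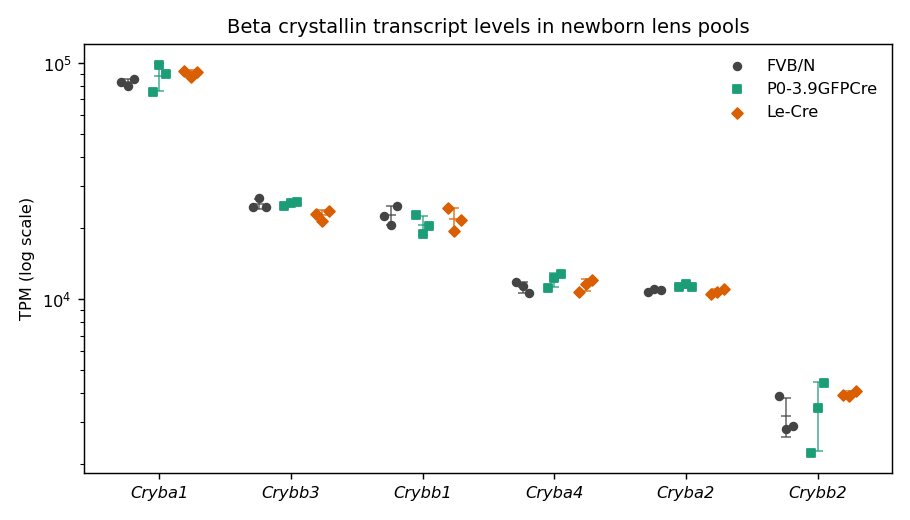
TPM of each beta crystallin gene (log scale) in the 9 pools; each point is 1 pool, and the bars give the mean and SD of the 3 pools of a line. *Cryba1* lies between 75388 and 98269 TPM and *Crybb2* between 2216 and 4409 TPM, and the lines lie close together for every gene.

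The order of the 6 genes by mean TPM was *Cryba1*, *Crybb3*, *Crybb1*, *Cryba4*, *Cryba2* and *Crybb2*. The 5 pairs of neighbours in this order were compared within pools with an exact two-sided sign-flip permutation test over the 9 pools, whose smallest possible p is 0.00391, with Benjamini-Hochberg adjustment over the 5 pairs. The order came from the same 9 pools, and the p-values do not account for that. They measure the spread between pools, taken over all lines, and not how well TPM compares different genes. *Cryba1* was above *Crybb3* in 9 of 9 pools, by 3.56-fold on the geometric mean (range 2.97 to 4.06, adjusted exact p = 0.00651). *Crybb1* was above *Cryba4* in 9 of 9 pools, by 1.87-fold (1.53 to 2.33, adjusted exact p = 0.00651). *Cryba2* was above *Crybb2* in 9 of 9 pools, by 3.20-fold (2.54 to 5.09, adjusted exact p = 0.00651).

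The other two neighbour pairs were separated by less than 1 SD of the difference between pools: the mean log2 difference was 0.18 (SD 0.18) for *Crybb3* over *Crybb1* and 0.07 (SD 0.08) for *Cryba4* over *Cryba2*. *Crybb3* was 1.13-fold above *Crybb1* (0.941 to 1.36, adjusted exact permutation p = 0.0195), and *Crybb1* was the higher of the pair in FVB/N replicate 3 and *Le-Cre* replicate 1. *Cryba4* was 1.05-fold above *Cryba2* (0.970 to 1.14, adjusted exact permutation p = 0.0313), and *Cryba2* was the higher in FVB/N replicate 3 and *P0-3.9GFPCre* replicate 1. The acidic and basic members were interleaved in this order. The genes of a chromosome 5 pair were not alike in level: the TPM of *Crybb3* was between 5.56 and 11.1 times that of its neighbour *Crybb2*, and the TPM of *Crybb1* between 1.53 and 2.33 times that of *Cryba4*.

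Taken as a family, the 6 genes made up 15.7%, 15.2% and 15.9% of TPM in the FVB/N pools, 14.7%, 17.0% and 16.4% in the *P0-3.9GFPCre* pools, and 16.5%, 15.4% and 16.4% in the *Le-Cre* pools. The lines overlapped. In whole lens RNA, fewer fibre cells and less beta crystallin RNA per cell cannot be told apart. The mean share was 15.6% in FVB/N and 16.1% in *Le-Cre*, a difference of 0.48 percentage points (exact two-sided permutation test, p = 0.3, adjusted p = 0.75). It was 0.45 points higher in *P0-3.9GFPCre* than in FVB/N (exact permutation p = 0.5, adjusted p = 0.75) and 0.03 points higher in *Le-Cre* than in *P0-3.9GFPCre* (exact permutation p = 0.9, adjusted p = 0.9). Without *P0-3.9GFPCre* replicate 1 these differences were 1.11 and -0.63 points, and without *P0-3.9GFPCre* replicate 2 they were -0.02 and 0.50 points. With 3 pools against 3 this test cannot give a p below 0.1. All 16 crystallins together took 56.5% to 60.8% of TPM, and the beta crystallins 26.1% to 29.2% of that crystallin total.

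*Cryba1* alone supplied 51.2% to 57.8% of the beta crystallin TPM of a pool and *Crybb2* at most 2.68%. The summed TPM of the basic members over that of the acidic members was 0.483, 0.493 and 0.486 in FVB/N, 0.507, 0.392 and 0.443 in *P0-3.9GFPCre*, and 0.450, 0.408 and 0.430 in *Le-Cre*. The 3 *Le-Cre* pools lay below the 3 FVB/N pools, by 0.18 on the log2 scale (exact two-sided permutation p = 0.1, the smallest possible, adjusted p = 0.3 over the 3 comparisons). The *P0-3.9GFPCre* pools overlapped FVB/N (log2 difference -0.13, exact permutation p = 0.4) and *Le-Cre* (log2 difference, *Le-Cre* minus *P0-3.9GFPCre*, -0.05, exact permutation p = 0.8).

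**Figure D2:**
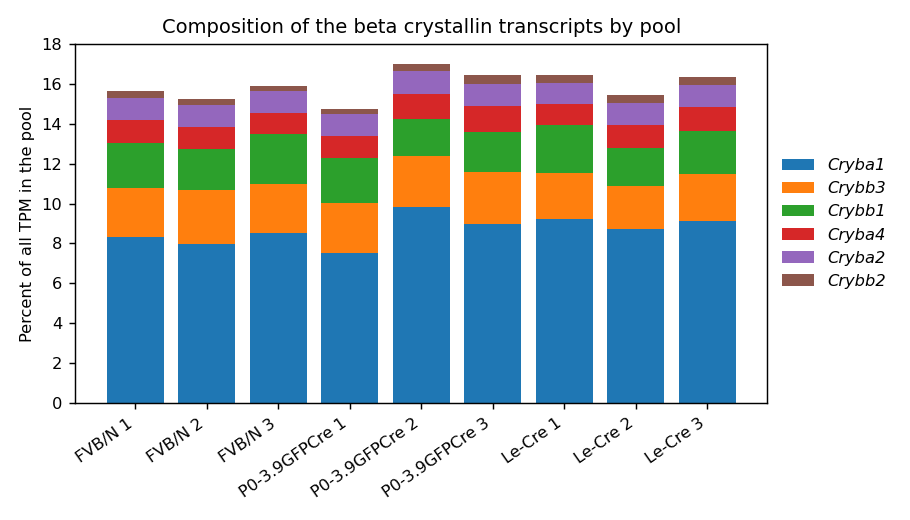
Percent of all TPM taken by each beta crystallin gene in each of the 9 pools, stacked, with no error bar since each bar is 1 pool. The family total runs from 14.7% in *P0-3.9GFPCre* replicate 1 to 17.0% in *P0-3.9GFPCre* replicate 2, and *Cryba1* takes over 50% of every bar.

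The ratio between the chromosome 5 neighbours *Crybb3* and *Crybb2* was examined after the values had been seen, and its p-values do not account for that choice. It was 6.33, 9.58 and 8.41 in FVB/N, 11.1, 7.38 and 5.82 in *P0-3.9GFPCre*, and 5.80, 5.56 and 5.80 in *Le-Cre*. The *Le-Cre* ratios were the lowest 3 of the 9, by a very small margin: the highest of them was 5.800, and *P0-3.9GFPCre* replicate 3 had 5.818. The share of gene pairs whose ratios separate in this way was not counted. The log2 difference was -0.48 from FVB/N and -0.45 from *P0-3.9GFPCre* (exact two-sided permutation p = 0.1 for each, the smallest possible, adjusted p = 0.15 over 3 comparisons), and -0.03 between *P0-3.9GFPCre* and FVB/N (exact permutation p = 1). For *Crybb1* over *Cryba4*, the head-to-head neighbours, the ratio was 1.92, 1.83 and 2.33 in FVB/N, 2.03, 1.53 and 1.60 in *P0-3.9GFPCre*, and 2.26, 1.67 and 1.80 in *Le-Cre*, and the lines overlapped.

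Single genes were compared between lines from the read counts, scaled to CPM, the count of a gene relative to the library size after edgeR's TMM scaling, with edgeR's quasi-likelihood test fitted to all 15557 genes that passed the filter and Benjamini-Hochberg adjustment over them. Calls required both an adjusted p no higher than 0.05 and a difference of 1.5-fold or more. For *Le-Cre* against FVB/N, 0 of 6 beta crystallins were called by edgeR, where 0.0643% of all genes tested were called. For *P0-3.9GFPCre* against FVB/N and for *Le-Cre* against *P0-3.9GFPCre*, 0 of 6 members and 0% of all genes were called. At an unadjusted p under 0.05 the count was 1 of 6, 0 of 6 and 0 of 6 in these comparisons, against 7.94%, 6.81% and 7.88% of all genes, and DESeq2 and limma also called 0 members. The pools of the compared lines did not overlap in CPM for 1 of 6, 0 of 6 and 0 of 6 members, against 13.5%, 12% and 14.1% of all genes. The comparisons share samples in pairs and are not independent of each other.

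*Crybb3* was the 1 member under that unadjusted threshold. Its CPM was 16024, 17267 and 16823 in FVB/N, 15116, 16087 and 16141 in *P0-3.9GFPCre*, and 14954, 13091 and 15864 in *Le-Cre*. All 3 *Le-Cre* pools were below all 3 FVB/N pools, as for 7.03% of all genes tested. In *Le-Cre* against FVB/N the log2 fold change was -0.19 (SE 0.08, 95% interval -0.36 to -0.02, edgeR adjusted p = 0.591). The lowest value came from *Le-Cre* replicate 2, and without that pool the log2 fold change was -0.11 and no longer passed the unadjusted threshold. On the CPM scale *Crybb3* in *P0-3.9GFPCre* overlapped both other lines, with a log2 fold change of -0.08 from FVB/N.

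*Crybb2* had the widest error of the 6 members in every comparison, and the widest difference in both comparisons with *Le-Cre*. Its CPM was 2499, 1766 and 1949 in FVB/N, 1330, 2164 and 2767 in *P0-3.9GFPCre*, and 2518, 2303 and 2694 in *Le-Cre*. FVB/N and *Le-Cre* overlapped by way of FVB/N replicate 1. The log2 fold change was 0.27 in *Le-Cre* against FVB/N (SE 0.21, 95% interval -0.20 to 0.75, edgeR adjusted p = 0.816), 0.26 in *Le-Cre* against *P0-3.9GFPCre* (edgeR adjusted p = 0.809) and 0.01 in *P0-3.9GFPCre* against FVB/N. The upper end of the first interval lies past the 1.5-fold cutoff. The difference between the transgenic lines depended on the pools used: it was 0.02 without *P0-3.9GFPCre* replicate 1 and 0.52 without *P0-3.9GFPCre* replicate 3 (edgeR adjusted p = 0.694), the latter under the unadjusted threshold of 0.05.

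The pools also differed in Y-linked transcripts, and so in the share of males among the mice pooled. The Y-linked genes *Uty*, *Kdm5d*, *Ddx3y* and *Eif2s3y* had a summed CPM of 121 to 193 in FVB/N, 1.67 to 135 in *P0-3.9GFPCre* and 0.619 to 74.2 in *Le-Cre*. Unlike the other CPM values, this sum was taken before TMM scaling. Every FVB/N pool lay above every *Le-Cre* pool in this sum, so the share of males and the line cannot be told apart there. The 3 pools with almost no Y-linked signal, *P0-3.9GFPCre* replicate 3 and *Le-Cre* replicates 1 and 3, were also the 3 with the highest *Crybb2* CPM, followed by FVB/N replicate 1. With the Y-linked sum as a covariate, the log2 fold change of *Crybb2* in *Le-Cre* against FVB/N was -0.03 in place of 0.27 and that of *Crybb3* was -0.25 in place of -0.19, no longer under the unadjusted threshold. *Crybb1* moved furthest below 0 with this covariate, to -0.37 in *Le-Cre* against FVB/N in place of -0.08 (edgeR adjusted p = 0.954) and to -0.38 in *P0-3.9GFPCre* against FVB/N in place of -0.18 (edgeR adjusted p = 0.598). Both *Crybb1* values were then under the unadjusted threshold of 0.05 and neither was called. The covariate also widened the SE of *Crybb2* in *Le-Cre* against FVB/N, from 0.21 to 0.31. Whether sex had a part in any of these values was not tested.

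No other member had an interval clear of 0. *Cryba1* had log2 fold changes of 0.09 (*Le-Cre* against FVB/N, SE 0.11, edgeR adjusted p = 0.902), 0.02 (*P0-3.9GFPCre* against FVB/N) and 0.07 (*Le-Cre* against *P0-3.9GFPCre*), and its CPM values overlapped between all lines. *Crybb1* had values of -0.08, -0.18 and 0.11 for the same comparisons, with the second, the widest of the 6 members in that comparison, at an edgeR adjusted p = 0.810. *Cryba4* had -0.01, 0.05 and -0.06, and *Cryba2* had -0.05, -0.01 and -0.05. The median over the 6 members was -0.03, 0.00 and 0.01, beside medians over all genes within 0.01 of 0. Over the 6 members and 3 comparisons the 95% intervals ran from -0.46 to 0.75 on the log2 scale, and the bounds past a 1.5-fold difference were upper bounds of *Crybb2* only.

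**Figure D3:**
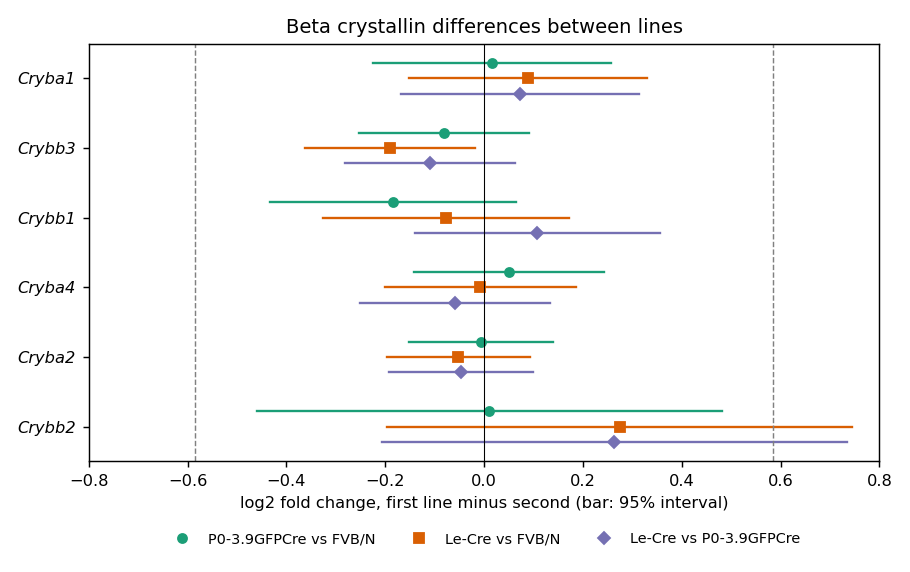
log2 fold change of each beta crystallin gene for the 3 comparisons of lines, from edgeR; bars are 95% intervals, and the dashed lines mark a 1.5-fold difference. The interval of *Crybb3* in *Le-Cre* against FVB/N, -0.36 to -0.02, is the one that does not cross 0, and those of *Crybb2* are the widest.

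The members differed in how far pools of the same line lay apart. The within-line SD of log2 CPM was 0.35 for *Crybb2*, 0.16 for *Crybb1*, 0.16 for *Cryba1*, 0.12 for *Cryba4*, 0.09 for *Crybb3* and 0.07 for *Cryba2*. Among the 72 genes with a mean of at least 1000 CPM, *Crybb2* had the 6th highest spread and *Cryba2* the 59th. *Crybb2* ranged 2.08-fold over the 9 pools and *Cryba2* 1.14-fold. The spread of *Crybb2* was 0.54 among the *P0-3.9GFPCre* pools, 0.26 among the FVB/N pools and 0.11 among the *Le-Cre* pools. Counting error was far smaller, since the smallest count of any member, 32343 reads for *Crybb2*, has a Poisson error of 0.556%.

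The pools did not move all members together. In *P0-3.9GFPCre* replicate 1 all 6 members were below their FVB/N mean, from -0.06 for *Cryba2* to -0.62 for *Crybb2* on the log2 scale. In *P0-3.9GFPCre* replicate 3, *Crybb2* was 0.43 above its FVB/N mean while *Crybb1* was at -0.16. In *Le-Cre* replicate 2, *Crybb3* was at -0.35 and *Crybb1* at -0.32 while *Crybb2* was at 0.17. That pool also had the highest blood marker level, a summed TPM of 263 for 5 globin and erythroid genes against 85.2 to 188 in the other pools; its part in the *Crybb3* value was not tested.

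**Figure D4:**
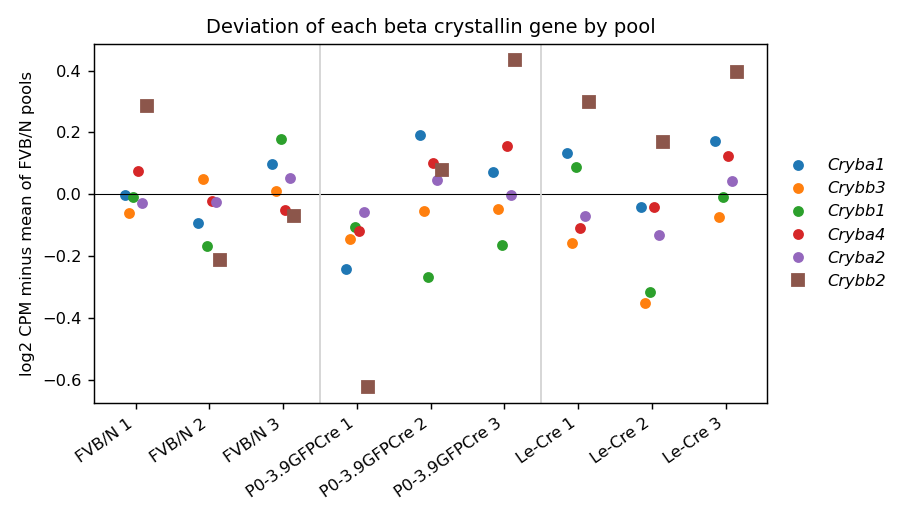
log2 CPM of each beta crystallin gene in each pool, minus the mean of the 3 FVB/N pools; each point is 1 gene in 1 pool and *Crybb2* is drawn as squares. *Crybb2* runs from -0.62 to 0.43, and the other members stay between -0.35 and 0.19.

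The members were also compared by how constant their ratios stayed over the 9 pools, as the SD of the log2 CPM ratio. *Cryba2* and *Crybb3*, which lie on different chromosomes, had the most constant ratio (SD 0.08), and the neighbours *Crybb2* and *Crybb3* the least constant (SD 0.37). Every ratio with *Crybb2* varied widely, from an SD of 0.25 with *Cryba1* upward, and that with *Crybb1* also had an SD of 0.37. The log2 CPM of *Crybb2* itself had an SD of 0.34 over the 9 pools. Of 7635 genes outside the crystallins with a mean of at least 10 CPM, 153 followed the mean of the other 5 members more closely than *Cryba1* did, 179 more closely than *Cryba2* and 312 more closely than *Cryba4*. The number was 2406 for *Crybb3*, 4987 for *Crybb1* and 7320 for *Crybb2*. The 5 genes whose ratio to the mean of the 6 members was most constant were *Invs* (SD 0.04), *Tmem234* (0.05), *Myl6* (0.05), *Mtmr7* (0.05) and *Smad2* (0.05). The mean of the 6 members itself had an SD of 0.10 in log2 CPM. The SD of these genes' own log2 CPM ran from 0.06 for *Smad2* to 0.10 for *Myl6*. All pools share the library scaling, and the likeness was not tested.

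The deposited tables give a mean transcript length per gene, weighted by the estimated abundance of each isoform. It was nearly fixed for *Cryba1* (781 to 783 bases), *Cryba2* (728 to 731 bases) and *Crybb2* (727 to 730 bases). *Crybb1* had 831, 828 and 826 bases in FVB/N, 828, 858 and 844 in *P0-3.9GFPCre*, and 831, 840 and 843 in *Le-Cre*. Its annotated transcripts (GENCODE M21) measure 793, 827 and 882 bases, so the FVB/N pools lay close to the middle one, and 4 of 6 transgenic pools lay above it by more than 10 bases. *Cryba4* ranged from 775 to 803 bases and *Crybb3* from 730 to 747 bases, with no separation of *Le-Cre* from FVB/N. These lengths enter TPM but not CPM, and isoforms were estimated from single-end reads of 51 bases.

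**Figure D5:**
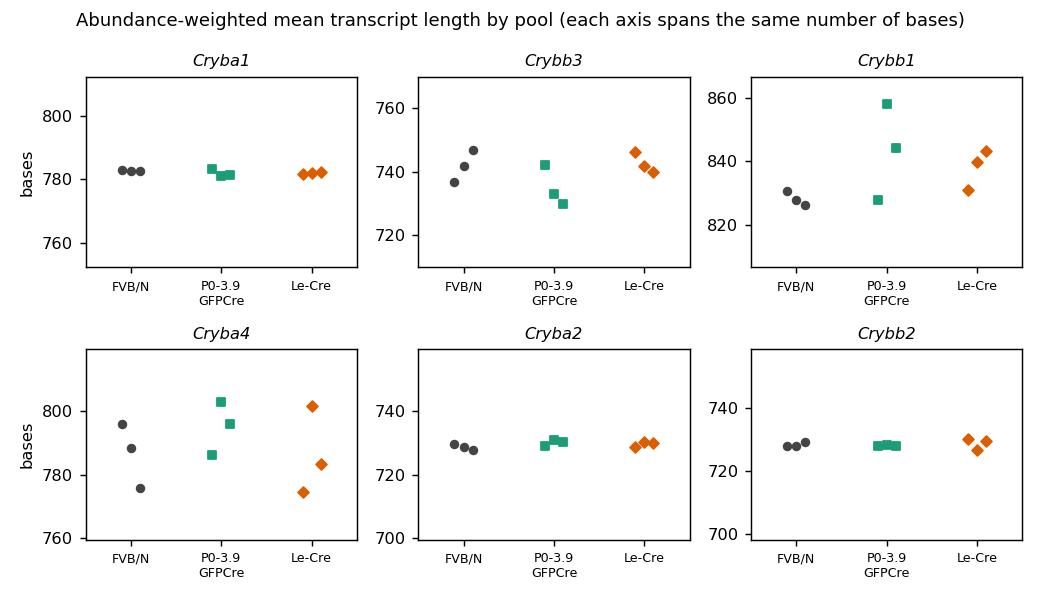
Mean transcript length in bases (weighted by estimated isoform abundance) of each beta crystallin gene in the 9 pools; each point is 1 pool, and every panel spans the same number of bases. *Cryba1*, *Cryba2* and *Crybb2* are flat, while *Crybb1* reaches 858 bases in *P0-3.9GFPCre* replicate 2.

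The members could be counted apart from each other. None of the 51-base sequences in the annotated transcripts of any member (786 for *Cryba4* to 2434 for *Crybb3*) occurred in a transcript of another gene. The posterior SD of the read count that accompanies each estimate was at most 2.67 reads, for *Cryba1*.

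The alpha and gamma crystallins, which share the fibre cell cytoplasm with the beta crystallins, gave the same count of calls. Of 2 alpha and 8 gamma crystallins, 0 were called by edgeR in any of the 3 comparisons, with 0 and 1 at an unadjusted p under 0.05 in each. Over all genes tested, edgeR called 0.0643% in *Le-Cre* against FVB/N and 0% in the other comparisons. The unadjusted threshold was passed by 7.94% in *Le-Cre* against FVB/N, 6.81% in *P0-3.9GFPCre* against FVB/N and 7.88% in *Le-Cre* against *P0-3.9GFPCre*. *Cryaa*, the most abundant crystallin, had log2 fold changes of -0.08 in *Le-Cre* and -0.05 in *P0-3.9GFPCre* against FVB/N, and *Cryab*, the other small heat shock crystallin, had 0.09 and -0.05. The gamma crystallins had a median of -0.04 in *Le-Cre* against FVB/N, -0.12 in *P0-3.9GFPCre* against FVB/N and 0.08 in *Le-Cre* against *P0-3.9GFPCre*. *Crygb* (log2 fold change -0.26, edgeR adjusted p = 0.722) and *Cryga* (-0.23, edgeR adjusted p = 0.741) had the widest values in the second comparison. Of 3 genes of the same fold outside the lens crystallins edgeR called 0, with 1, 0 and 0 at an unadjusted p under 0.05. That 1 gene, *Crybg1*, had a CPM of 3.15 ± 0.76 in FVB/N and 4.75 ± 0.46 in *Le-Cre* (SD, n = 3 each; log2 fold change 0.60, edgeR adjusted p = 0.453).

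Among 9 lens transcription factors, 12 fibre cell genes and 4 epithelial genes, edgeR called 0 in every comparison, and 0 to 1, 2 to 4 and 0 to 1 of them were at an unadjusted p under 0.05. The fibre cell count was 3, 4 and 2 of 12 in *Le-Cre* against FVB/N, *P0-3.9GFPCre* against FVB/N and *Le-Cre* against *P0-3.9GFPCre*. Over all genes tested, edgeR called 0.0643%, 0% and 0% in these comparisons, and 7.94%, 6.81% and 7.88% were under that unadjusted threshold. The lists were not tested as sets. Of the transcription factors, *Maf*, the large Maf protein of fibre cells, had log2 fold changes of -0.16 in *Le-Cre* and -0.24 in *P0-3.9GFPCre* against FVB/N (edgeR adjusted p = 0.729 and 0.662). *Foxe3*, a factor of the lens epithelium counted in both the factor and the epithelial list, had -0.27 and -0.33 (edgeR adjusted p = 0.809 and 0.810). Of the fibre cell genes, *Dnase2b*, the nuclease that clears DNA from maturing fibres, had -0.37 and -0.45 (edgeR adjusted p = 0.356 and 0.590). *Lgsn*, a lens member of the glutamine synthetase family, had -2.89 in *Le-Cre* against FVB/N (edgeR adjusted p = 0.540) at a very low level, with a CPM of 1.93 ± 2.91 in FVB/N and 0.257 ± 0.0993 in *Le-Cre* (SD, n = 3 each). *Caprin2*, an RNA-binding protein gene of fibre cells named after its values were seen, went the other way, with 0.32 and 0.24 (edgeR adjusted p = 0.240 and 0.632) and all pools of each transgenic line above all FVB/N pools. Of the epithelial genes, *Pdgfra*, a growth factor receptor gene, had -0.40 and -0.28 (edgeR adjusted p = 0.169 and 0.590).

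The pools held 20670968 to 28098059 estimated reads, of which the beta crystallins took 9.92% to 11.4%. The markers matched lens: 12 fibre genes summed to 9915 to 10839 TPM, and 4 epithelial genes to 130 to 138 TPM in FVB/N, 115 to 133 in *P0-3.9GFPCre* and 106 to 123 in *Le-Cre*. All 3 *Le-Cre* pools were below all 3 FVB/N pools in this epithelial sum, and its part in the beta crystallin values was not tested. Markers of other eye tissues were low, with the retinal sum at most 0.86 TPM, the corneal sum at most 0.04 TPM, the pigment epithelium sum at most 4.67 TPM and the macrophage sum at most 1.46 TPM. Vessel genes summed to 14.7 to 34.6 TPM.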

How the data were processed

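RNA from 9 pools of newborn lenses was sequenced after poly(A) selection as single-end 51-base reads. Per the study's methods and the submitters' processing notes, the authors trimmed reads with Trimmomatic 0.36, aligned them to GRCm38 with GSNAP and estimated gene levels with RSEM 1.3.0, and they tested differences with DESeq2 1.10.1. The gene annotation they used is not given in the sources used here. The deposited tables hold expected counts that the authors estimated with RSEM, TPM, mean transcript lengths, posterior SDs and interval bounds. The posterior SDs and bounds were treated as deposited signal values.

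Expected counts were rounded and tested with edgeR 4.0.16 (R 4.3.3): TMM scaling, filterByExpr, quasi-likelihood F test, all 9 pools in 1 fit with line as the group. The deposited TPM values were used as they stand to compare genes. Shares and ratios were compared by exact two-sided permutation. Alternatives were another scaling, other filters, DESeq2 1.42.0, limma 3.58.1 on log2(TPM + 1), a replicate block, a Y-linked covariate and leaving out pools. The estimated reads per pool ran from 20670968 to 28098059. The 95% intervals of fold changes come from the edgeR fit and include the spread between pools, while Poisson errors of single counts cover counting error only.

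The 6 members and the lists of related genes were chosen with earlier results of these data known. All 6 members are named, and of each list the 2 genes with the largest absolute log2 fold changes in a comparison, up to 4 a list. Samples were grouped by title. Over all genes, pool replicate numbers did not mark shared deviations. Promoters and names came from RefSeq (GRCm38.p6) and GENCODE M21, and all 6 members matched.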

Additional observations from a re-analysis of the deposited data

How the results depend on the processing

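The beta crystallins called stayed at 0 under all 19 alternative settings in each of the 3 comparisons, which share samples. The shares, basic to acidic ratios and medians over the members moved by less than the spread between pools. Leaving out 1 pool still turned the sign of the share difference in *P0-3.9GFPCre* against FVB/N (-0.02 to 1.11 percentage points) and in *Le-Cre* against *P0-3.9GFPCre* (-0.63 to 0.50). It also turned that of the log2 basic to acidic ratio in *Le-Cre* against *P0-3.9GFPCre* (-0.14 to 0.04). The median over the members crossed 0 in *Le-Cre* against FVB/N (-0.09 to 0.02), *P0-3.9GFPCre* against FVB/N (-0.06 to 0.08) and *Le-Cre* against *P0-3.9GFPCre* (-0.06 to 0.06). *Crybb3* in *Le-Cre* against FVB/N stayed negative in 19 of 19 alternatives (-0.25 to -0.11), with an unadjusted p under 0.05 in 14 and an adjusted p from 0.331 to 0.954. Of the log2 fold changes of single members under an alternative, 319 kept their sign and 23 changed it. Those that changed sign, none of them called, were *Cryba4* with limma (0.027) and *Crybb2* with the Y-linked covariate (-0.035) in *Le-Cre* against FVB/N, and in *P0-3.9GFPCre* against FVB/N *Cryba1* with that covariate (-0.0069), *Cryba2* and *Crybb3* with limma (0.061 and 0.0018), and *Crybb2* with the covariate (-0.20) or the replicate block (-0.017). Leaving out 1 pool gave -0.078 to 0.043 for *Cryba4* and -0.16 to 0.036 for *Crybb1* in *Le-Cre* against FVB/N. In *P0-3.9GFPCre* against FVB/N it gave -0.075 to 0.13 for *Cryba1*, -0.028 to 0.022 for *Cryba2*, -0.0045 to 0.13 for *Cryba4* and -0.25 to 0.25 for *Crybb2*. In *Le-Cre* against *P0-3.9GFPCre* it gave -0.041 to 0.17 for *Cryba1*.

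Over all genes the count called depended on the settings, and the cause was not tested. It was 10 in *Le-Cre* against FVB/N, and 131 with no filter, 5 with a mean of 10 counts, 49 with DESeq2 without a prior, 1 with limma, 2 with the replicate block, 1 with the covariate, and 0 to 10 leaving out 1 pool. In *P0-3.9GFPCre* against FVB/N it was 0, and 93 with no filter, 11 with DESeq2 without and 1 with a prior, 1 with the covariate, and 0 to 14 leaving out 1 pool. In *Le-Cre* against *P0-3.9GFPCre* it was 0, and 123 with no filter, 35 and 4 with DESeq2 without and with a prior, 1 with limma, 31 with the compared pools only, and 0 to 18 leaving out 1 pool (18 without FVB/N replicate 2).

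The replicate block changed no call of a member. Same-numbered pools had a mean correlation of 0.03 in their deviations over all genes (-0.10 to 0.12), which does not test pairing for a single gene. *Crybb1* was lowest in replicate 2 of every line, at -0.17 in FVB/N, -0.27 in *P0-3.9GFPCre* and -0.32 in *Le-Cre* from its FVB/N mean (log2 CPM). With the block its SE in *P0-3.9GFPCre* against FVB/N was 0.08 in place of 0.11. Its log2 fold change there, -0.18, was then under the unadjusted threshold of 0.05 (edgeR adjusted p = 0.727). With 3 pools a line, a difference of the size seen in *Crybb2* was not resolved from the spread between pools.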

Other observations

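*Crygs*, a gamma crystallin that, like *Crybb2*, is known to accumulate late in lens growth, was looked at after the values had been seen. Its CPM was 4178, 2941 and 3484 in FVB/N, 2894, 3057 and 3690 in *P0-3.9GFPCre*, and 4093, 4039 and 4867 in *Le-Cre*. *P0-3.9GFPCre* replicate 1 was the lowest pool for both *Crygs* and *Crybb2*, and *Crygs* ranged 1.68-fold over the 9 pools with a within-line SD of 0.20 in log2 CPM, the 9th highest of 72 genes with a mean of at least 1000 CPM. The log2 fold change of *Crygs* was 0.29 in *Le-Cre* against FVB/N (edgeR adjusted p = 0.628) and 0.43 in *Le-Cre* against *P0-3.9GFPCre* (edgeR adjusted p = 0.463), so neither was called. Both were under the unadjusted threshold (edgeR unadjusted p = 0.0479 and 0.00759), as were 7.94% and 7.88% of all genes. All *Le-Cre* pools lay above all *P0-3.9GFPCre* pools in CPM, where 14.1% of all genes did not overlap in either direction. *Le-Cre* and FVB/N overlapped.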
